A study of Mus musculus with 10 samples.

Results

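The 5 wild-type (WT) 4T1 tumours of this series were described by the level of every gene in them and by how far that level differed from tumour to tumour. They are 5 of the 10 samples, taken by their genotype label. 4T1 cells come from a BALB/c mammary carcinoma, form aggressive, metastasizing tumours in immunocompetent hosts and are known for drawing in myeloid cells. The WT cells carry the intact form of a gene that was knocked out in the tumours of the other 5 samples, which were not compared here. Cells were implanted into BALB/c mice, tumours grew in vivo for 3 weeks, and RNA was taken from sections of frozen tumour, so each library holds the carcinoma cells together with host cells and any host tissue in the section. The labels give no age, sex, implantation site or dose of cells, do not say whether the line is 1 clone, and name no animal per library. Of 18047 genes in the table, 13017 had a WT mean of at least 50 normalized reads. Spread was measured over these genes as the SD of log2(normalized reads + 1) across the 5 libraries.

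A tumour section samples several compartments at once. Malignant epithelium expresses simple-epithelial keratins and adhesion molecules. The stroma holds fibroblasts that secrete collagen, endothelial cells and pericytes of the vessels, and immune cells, among them macrophages, neutrophils and lymphocytes. Tumours grown under the skin or in the mammary fat pad border on skeletal muscle, fat and skin, each of which expresses a small set of genes at very high levels.

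The WT libraries held between 11772430 and 19934428 reads. At this depth the counting error of a gene with a mean of at least 50 had a median of 0.07 on the log2 scale, against a median SD between libraries of 0.42. The library names of WT1 to WT4 carry the prefix RESUB and that of WT5 does not, and WT2 and WT5 share the number 170. The labels explain neither. The median absolute log2 difference between 2 libraries was lowest for WT1 and WT5 (0.28) and highest for WT2 and WT3 (0.64), with 0.58 for the pair numbered 170. Libraries also differed in base composition and length: across 12970 genes, a library's deviation from the WT mean correlated with GC content at r = 0.57 in WT4 and -0.58 in WT5, and with log2 exon length at r = -0.36 in WT2 and 0.27 in WT5. Genes are not independent replicates, so these values are descriptions. Where removing the GC and length trends from each library changed a count below by over 1.5 times, and for some other lists, the corrected count stands beside it.

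The most abundant RNAs of the WT tumours were noncoding RNAs, mitochondrial messenger RNAs and genes of translation and the cytoskeleton. The gene with the most reads was Gm26917, annotated as a long intergenic noncoding RNA, with 7.77% ± 2.74 of all reads (SD, n = 5) and from 3.74% in WT5 to 10.7% in WT4. It lies on chromosome 17 from 39843013 to 39846341 (GRCm38) and ends 12 bases before Rn18s-rs5, an 18S ribosomal RNA related repeat of the RefSeq annotation that runs from 39846354 to 39848202. Whether its reads are ribosomal RNA was not tested. Rn7sk, the 7SK RNA that holds the elongation factor P-TEFb inactive, took 2.26% ± 0.69 of reads. Rpph1, the RNA of ribonuclease P, took 0.784% ± 0.286, and it shares 233 exonic bases with Ccnb1ip1. Malat1, a nuclear-retained long noncoding RNA, took 0.763% ± 0.365, from 0.411% in WT4 to 1.32% in WT3. The 100 genes with the highest levels held 25.7% of the summed level. The mitochondrial genome gave 3.10% ± 0.93 of reads and nuclear protein-coding genes gave 81.8% ± 2.5.

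Levels of different genes were compared per kb of exon length. Among protein-coding genes, mt-Co1, a subunit of cytochrome c oxidase, was highest at a mean of 113704 normalized reads per kb, followed by mt-Nd1 (58244) and mt-Cytb (57229), subunits of complexes I and III. The highest nuclear gene was Eef1a1, the translation elongation factor, at 39320 per kb. Next came B2m, the light chain of MHC class I, at 30946 per kb, and Lgals1, the secreted lectin galectin-1, at 30256 per kb. Actb (22971 per kb), the secreted phosphoprotein osteopontin Spp1 (17460 per kb), the myeloid lysozyme Lyz2 (12794 per kb) and the actin-binding peptide Tmsb4x (12204 per kb) followed. Also among the top 20 were 4 other mitochondrial genes, the histone H4 genes Hist1h4n and Hist1h4f, Rps3a1, Eef2 and Ptma, which encodes prothymosin alpha. mt-Atp6, which shares 43 bases with mt-Atp8, had only 399 per kb beside the 113704 of mt-Co1, which is cut from the same long precursor transcript.

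**Figure D1:**
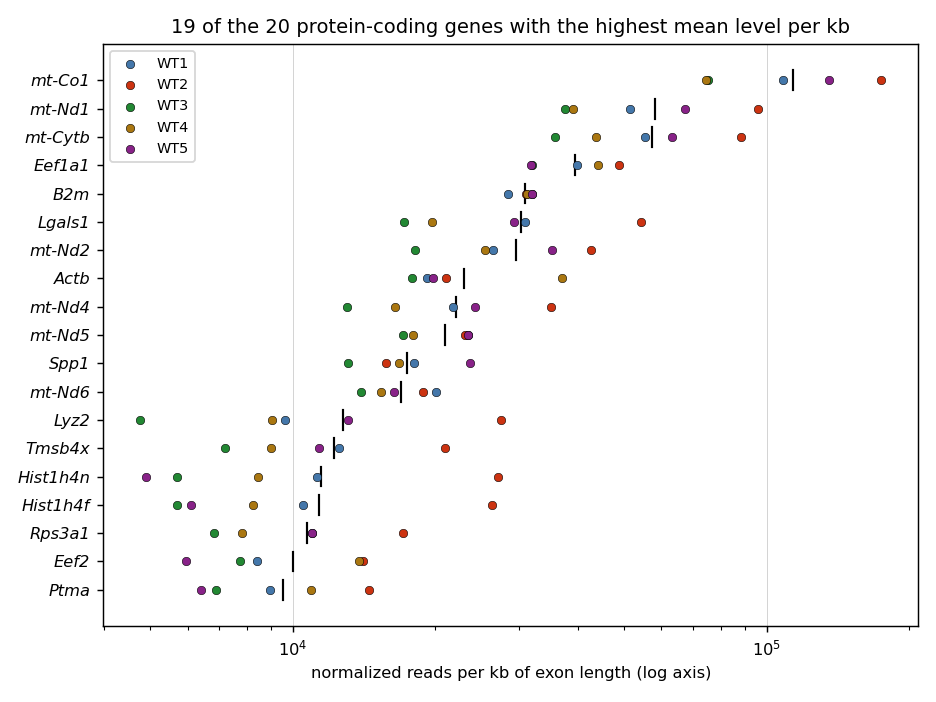
Normalized reads per kb of exon length (x axis, log scale) of 19 of the 20 protein-coding genes with the highest WT mean, one point per WT library, with the mean as a vertical bar. WT2 held the highest value of most of these genes, while the B2m points lie almost on top of each other (SD 0.07 on the log2 scale) and Actb was highest in WT4, at 98921 normalized reads.

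Carcinoma markers were detected in every library. Krt18 and Krt8, the paired keratins of simple epithelium, had mean levels of 4850 and 2945 per kb. Krt18 had 7965, 7037, 5496, 8636 and 5714 normalized reads in WT1 to WT5, a span of 1.57-fold. Epcam, an epithelial adhesion molecule, had 1347 per kb and ran from 1843 normalized reads in WT2 to 3789.8 in WT1. Cdh1, which encodes E-cadherin, stood at 2496, 686, 3494, 4084 and 2748, so that WT2 was far below the other libraries. Krt19 had 303, 301, 322, 736 and 253, with WT4 above the rest. The mesenchymal intermediate filament Vim had 5250 per kb and the integrin Itgb1 3691 per kb, both with an SD of at most 0.30. The libraries hold host cells too, and the part of the carcinoma cells in these values was not tested. Receptors that class breast tumours were low, with Erbb2 at 97.3 per kb, Egfr at 62.1 and Esr1, the oestrogen receptor, at 46.6. In bulk tissue fewer cells of a type and less RNA per cell cannot be told apart.

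Myeloid and stromal genes were also abundant, and T cell genes were low. C1qa, a complement subunit made by macrophages, had 3455 per kb and ranked 101 among protein-coding genes. The macrophage receptors Mrc1, Csf1r and Adgre1 had 492, 345 and 272 per kb, and Cd68 had 436. Csf1r shares 873 exonic bases with Hmgxb3. Of the fibrillar collagens, Col1a1 had 3412 per kb, Col3a1 2247 and Col1a2 1057, and the fibroblast receptor Pdgfra had 149. The endothelial genes Cdh5, Pecam1 and Kdr had 206, 190 and 33.7 per kb. Rgs5, a pericyte marker, had 299. Against these, the T cell genes Trac, Cd8a, Cd3e, Cd4 and Cd3d had 56.8, 29.4, 15.6, 9.20 and 7.47 per kb, and 8 of 24 T cell genes reached the mean of 50. Ly6g, the neutrophil surface marker, had 7.25 per kb and no read in WT1, whereas the neutrophil calcium-binding genes S100a9 and S100a8 had 606 and 507 per kb. Mbp, a gene of the myelin sheath in the Schwann cell list, had 49.4 per kb. The B cell markers Ms4a1 and Cd79a, the hair keratins Krt25 and Krt71 and the milk protein genes Csn2, Wap and Lalba were not analysed here. Every gene of the table held at least 101 reads over the 10 libraries.

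**Figure D2:**
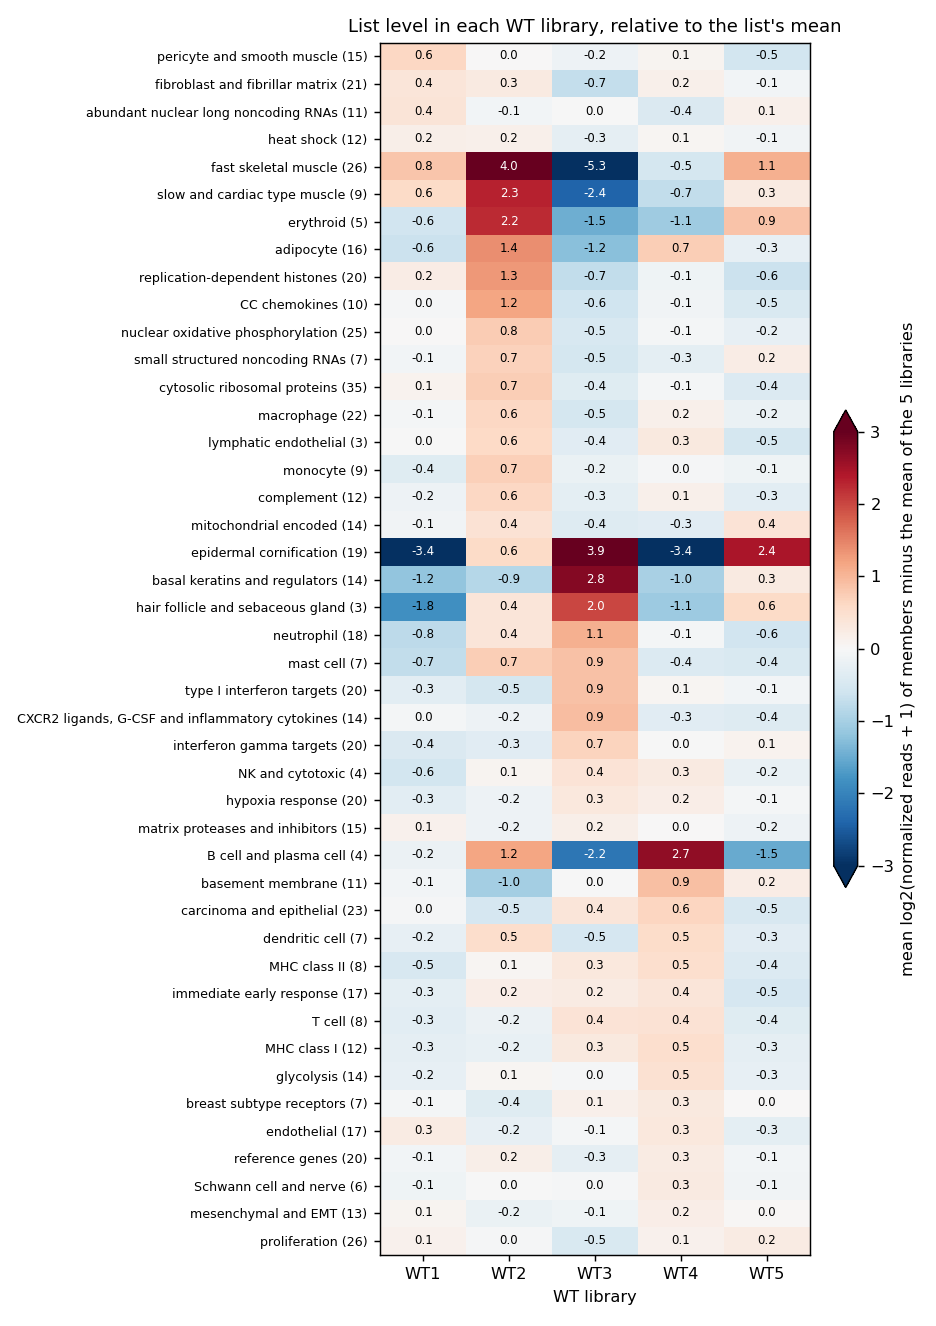
Level of each gene list with at least 3 members of mean 50 or more (rows, number of such members in brackets) in each WT library (columns), as the mean log2(normalized reads + 1) of its members minus the list's mean over the 5 libraries. Fast skeletal muscle spans 9.30 on this scale, lowest in WT3 and highest in WT2, and epidermal cornification spans 7.31, lowest in WT1 and highest in WT3. Proliferation, glycolysis and endothelial genes span 0.70, 0.72 and 0.61.

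The spread of most genes was moderate, with a median SD of 0.42 and a 95th percentile of 0.99, and a small set of genes ranged from no read at all to very high levels. The SD of the log2 level was at least 1 in 628 of 13017 genes, 4.82% of those measured, and at least 3 in 69. Genes with an SD of at least 1 are called variable below. The members nearest the threshold had an SD of 1.00 on either side. The share of variable genes differed with the level: 12.4% of genes with a mean from 50 to 100 normalized reads, 5.03% from 100 to 500, 1.72% from 500 to 5000 and 3.96% of the 278 genes at 5000 or more. Of the 628 variable genes 484 were protein-coding. Lists of cell types and pathways held 137 of them, and 491 were in no list.

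Variable genes were highest in WT2 or WT3 in most cases. The highest library was WT2 for 300 of the 628, WT3 for 215, WT4 for 57, WT1 for 31 and WT5 for 25. Over all 13017 genes, regardless of spread, the highest library was WT2 for 32.0%, WT4 for 28.2%, WT5 for 20.3%, WT3 for 14.3% and WT1 for 5.22%. The combination of highest in WT2 and lowest in WT3 was the most frequent pair of extremes, in 239 variable genes, and 16.3% of all genes measured had it. The reverse combination held in 118. With the GC and length trends removed, 562 genes were variable, of which 264 were highest in WT2, 251 in WT3, 20 in WT4, 16 in WT1 and 11 in WT5. The order of WT2 and WT3 was not stable: WT3 led 603 genes and WT2 509 with a minimum mean of 10, 631 and 514 with no minimum, 360 and 267 with scaling to the library total, and 290 and 276 with median-of-ratios scaling over nuclear protein-coding genes. Leaving out WT2 left 348 variable genes, and using WT1, WT4 and WT5 alone left 309.

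**Figure D3:**
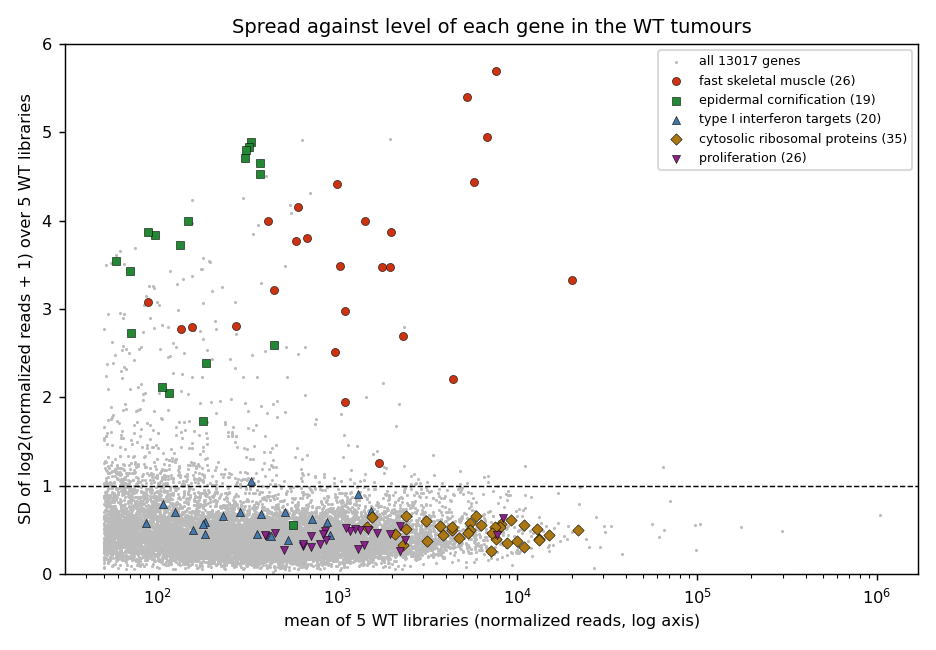
SD of log2(normalized reads + 1) over the 5 WT libraries (y axis) against the mean level (x axis, log scale) for 13017 genes, with 5 gene lists in colour. Fast skeletal muscle and epidermal cornification genes lie above the dashed line at an SD of 1 with 1 exception, Sfn, whereas ribosomal protein and proliferation genes lie below it.

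**Figure D4:**
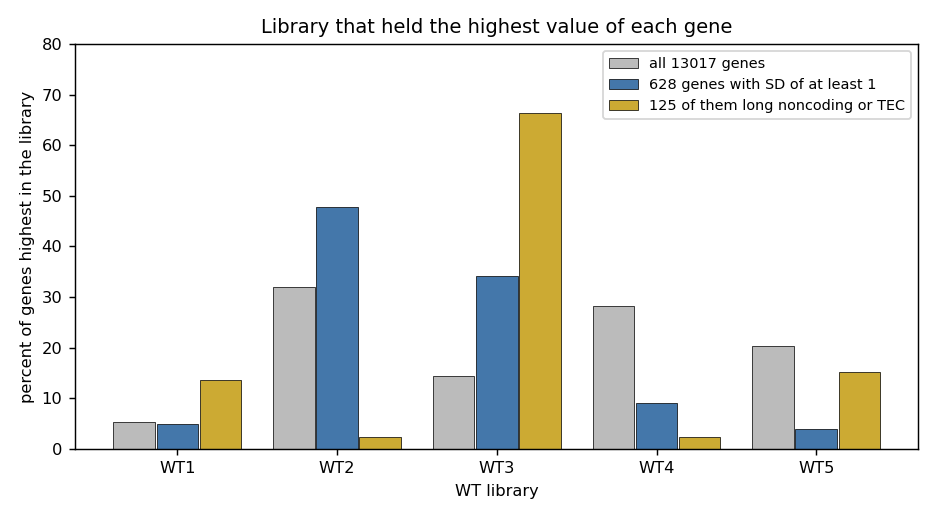
Percent of genes (y axis) whose highest value was in each WT library (x axis), for all 13017 genes, for the 628 variable genes and for the 125 long noncoding or TEC genes among them (TEC, an annotation class for transcripts that still lack experimental evidence). WT2 and WT3 hold more of the variable genes than of all genes, and WT3 holds 83 of the 125.

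Skeletal muscle genes had the 4 largest SDs of the table, those of Myh4, Ckm, Acta1 and Xirp2. All 26 genes of the fast muscle list reached the mean of 50, all 26 were variable, against 4.82% of genes measured, and all 26 were highest in WT2 and lowest in WT3, an order that 16.3% of genes measured had. Their median SD was 3.47. Myh4, the myosin heavy chain of the fastest fibres (chromosome 11, 67238029 to 67260446), had an SD of 5.69. It had 1702, 29602, 0, 1998 and 4678 normalized reads in WT1 to WT5. In WT3, where 3 reads are worth 2.91, no read was found. Ckm, the muscle creatine kinase, had 1933, 22248, 0, 686 and 1479.9, and shares 451 exonic bases with the antisense gene A930016O22Rik, whose reads cannot be told from its own without strand. Acta1, skeletal muscle actin (chromosome 8, 123891769 to 123894751; coordinates here and below are GRCm38), had 3885, 27351, 1.94, 1452 and 1419. For these genes WT2 was highest, WT3 was at or next to 0, and WT1, WT4 and WT5 lay between.

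Other parts of the contractile and calcium-handling apparatus followed the same order. Titin (Ttn) had 12036, 45742, 149, 6804 and 36349 normalized reads, so that WT5 came close to WT2 for this gene, which shares 453 exonic bases with the antisense gene Gm13938. The calcium pump Atp2a1, which shares 763 exonic bases with Rabep2, had 2336, 22277, 4.85, 1299 and 2767. The calcium buffer Pvalb had 101, 4302, 0, 107 and 445. Xirp2, an actin-binding protein of muscle in no list, had 1508, 7305, 0, 172 and 835. Over the 26 genes WT2 was above WT1 by a median of 3.20 on the log2 scale, above WT5 by 2.89 and above WT4 by 4.54. The summed level of the list was 8440, 75428, 495, 3568 and 7481 normalized reads per kb in WT1 to WT5. Leaving out WT3 lowered the list's median SD to 1.93, and without both WT2 and WT3 it was 1.00.

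Fibre types were not equally represented. Of the reads of 4 adult myosin heavy chain genes (Myh1, Myh2, Myh4 and the slow-fibre Myh7), Myh4 held 84.4% in WT2 (95% Wilson interval 84.0 to 84.7%), 84.5% in WT4 (83.3 to 85.7%), 76.6% in WT5 (75.5 to 77.7%) and 69.6% in WT1 (67.9 to 71.3%). No share was computed for WT3, which had too few reads of the 4 genes together and none of Myh4. Intervals cover counting error only. Slow-fibre Myh7 held 1.69% in WT2 and 5.13% in WT1. Of 9 genes of the slow and cardiac muscle list with a mean of at least 50, 6 were variable and highest in WT2. Over all genes measured 4.82% were variable and 32.0% were highest in WT2. Myoglobin (Mb) had 263, 2372, 28.2, 52.1 and 316. The 3 that were not variable, Atp2a2, Tpm3 and Tnnt2, were highest in WT5, WT4 and WT3. Myf6, a transcription factor of muscle fibres, had 62.3, 211, 0, 10.1 and 39.9, and was the only 1 of 12 muscle development and repair genes to reach the mean of 50. Desmin (Des), in the pericyte and smooth muscle list and also a filament of striated muscle, had 2364, 8498, 54.4, 287 and 523.

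The 250 bases before the RefSeq start sites of Acta1 and Myh4 are shown. These are the 2 genes of the fast muscle list in which a CArG box was found, and both stand at the top of the spread. Ckm and Xirp2, which also stand there, are not shown. In both, capitals mark matches to the CArG box, the site known for serum response factor, or to the MEF2 site.
Acta1 (chr8:123894776-123895025, minus strand): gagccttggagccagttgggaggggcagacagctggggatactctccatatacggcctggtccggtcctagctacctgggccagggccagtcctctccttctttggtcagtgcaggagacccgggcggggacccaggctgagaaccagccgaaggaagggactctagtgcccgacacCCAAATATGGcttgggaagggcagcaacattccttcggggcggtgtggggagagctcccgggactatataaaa
Myh4 (chr11:67237562-67237811, plus strand): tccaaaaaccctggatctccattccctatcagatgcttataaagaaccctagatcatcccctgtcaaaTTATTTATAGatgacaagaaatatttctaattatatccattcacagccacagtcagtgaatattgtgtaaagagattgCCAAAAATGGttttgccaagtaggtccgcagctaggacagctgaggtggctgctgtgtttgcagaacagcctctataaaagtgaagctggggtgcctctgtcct
The sequences are from RefSeq (GRCm38.p6), read 5′ to 3′ in the direction of the gene. In Acta1 the CArG box lies from 73 to 64 bases before the start. In Myh4 the MEF2 site lies from 182 to 173 bases and the CArG box from 104 to 95 bases before it, and the motifs do not overlap. Both strands were searched. Of 18 genes of the fast muscle list with a promoter entry, 2 held a CArG box and 4 a MEF2 site in this window. The same held for 1.48% and 2.04% of 9507 genes with a mean of at least 50 and a promoter entry. A match is a description of letters and not of binding.

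**Figure D5:**
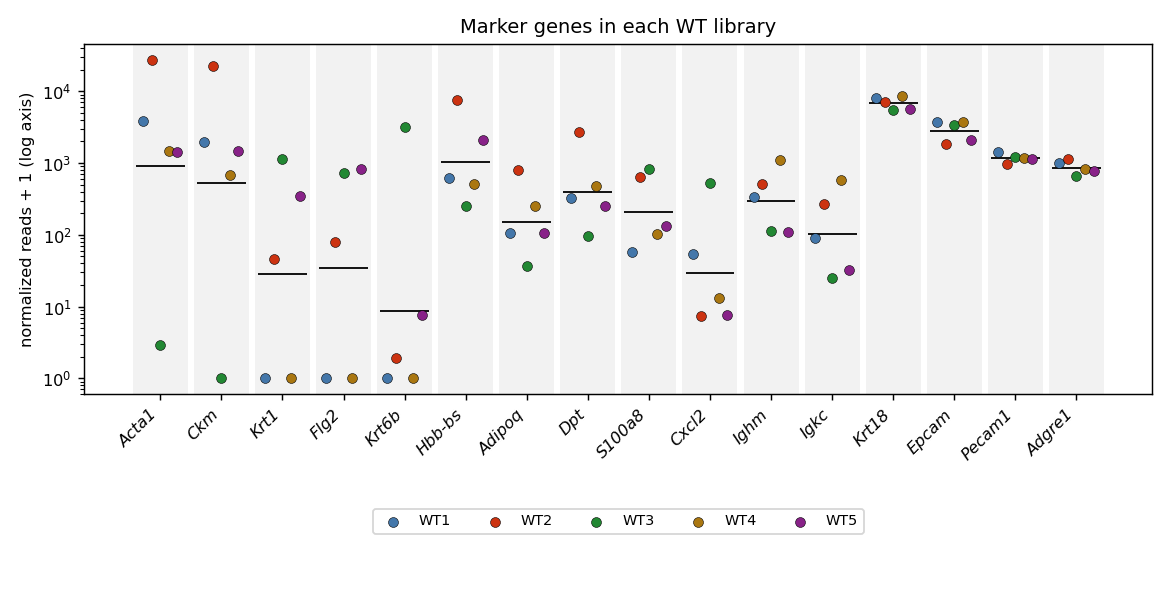
Normalized reads + 1 (y axis, log scale) of marker genes of several tissues and cell types (x axis), one point per WT library, with a line at the mean of the log values. The muscle markers Ckm and Acta1 ran from 0 reads of Ckm in WT3 to 27351 normalized reads of Acta1 in WT2, and Krt18 points lie within a 1.57-fold span.

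Skin genes formed the other extreme. Of 19 epidermal cornification genes with a mean of at least 50, 18 were variable, and 18 were highest in WT3. Over all genes measured the shares were 4.82% and 14.3%. In 18 of the 19 the libraries WT2, WT3 and WT5 each stood above both WT1 and WT4, an order that 64 of the 628 variable genes and 2.97% of all genes measured had. Krt1, a keratin of the suprabasal epidermis (chromosome 15, 101845426 to 101850794), had 0, 44.6, 1152, 0 and 343 normalized reads in WT1 to WT5. Its partner Krt10 had 33.2, 152, 1191, 21.7 and 833. Flg2, which encodes filaggrin-2 of the cornified layer, had 0, 77.4, 716, 0 and 815 and was the 1 member highest in WT5. Krt77, a keratin of eccrine ducts and epidermis, had 0, 138, 813, 0 and 700.1. Loricrin (Lor) had 79.6 in WT3 and 72.0 in WT5 and no read in WT1 or WT4. WT1 and WT4 were lowest for all of these, WT3 and WT5 were high and WT2 was between.

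Desmosome and lipid genes of the epidermis had that order too. The desmosomal cadherin Dsc3 had 0.831, 71.9, 1326, 0 and 449.7 normalized reads. Abca12, a lipid transporter of keratinocytes in no list, had 0, 31.0, 541, 0 and 200.5. Elovl4, which makes very long chain fatty acids, had 4.16, 228, 942, 0 and 312. The list member that was not variable was Sfn, an epithelial 14-3-3 protein, at 598, 627, 848, 437 and 305. The list's summed level was 437, 1013, 5591, 343 and 2075 per kb.

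Several keratins of basal and activated keratinocytes differed more between WT3 and WT5 than Krt1 and Krt10 did. Krt6b, a keratin of wounded and hyperproliferative epidermis, had 0, 0.911, 3174, 0 and 6.65 normalized reads, and Krt6a had 0, 6.37, 1967, 0 and 23.3. Krt6b shares 129 exonic bases with Gm44383 and Krt6a shares 471 with Gm49428. These 2 genes are close relatives, and the way the authors' counting divided reads between them is not given in the sources used here. WT3 was 478-fold above WT5 for Krt6b and 84.6-fold for Krt6a, against 3.35-fold for Krt1, 1.43-fold for Krt10 and 0.878-fold for Flg2. Krt14, a basal keratin, had 1134, 616, 4869, 422 and 825. Krt5, Krt16 and Krt17, named after their values were seen, had WT3 over WT5 ratios of 7.50, 52.8 and 18.6. There were exceptions on both sides, also named after their values were seen: the basal keratin Krt15 had 275 normalized reads in WT3 and 137 in WT5, a smaller ratio than that of Krt1, while Krt2, a keratin of differentiated keratinocytes, had 99.04 in WT3 and 1.11, a single read, in WT5. Of 14 basal keratins and regulators 9 were variable and 10 were highest in WT3, against 4.82% and 14.3% of all genes measured. The hair follicle gene Krt79 had 0.831, 38.2, 394, 5.07 and 72.0, and 5 of 24 hair follicle and sebaceous gland genes had a row in the table.

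Most fat genes and all globin genes measured were highest in WT2, as muscle genes were. Of 16 adipocyte genes with a mean of at least 50, 10 were variable, 10 were highest in WT2 and 5 in WT4. Over all genes measured the shares were 4.82%, 32.0% and 28.2%. Adipoq, the adipocyte hormone adiponectin, had 104, 809.6, 35.9, 249.8 and 106 normalized reads in WT1 to WT5. Plin1, the coat protein of lipid droplets, had 44.9, 273, 60.2, 302 and 106, so that WT4 was above WT2. Car3, a carbonic anhydrase abundant in fat and in muscle, had 857, 6088, 269, 2259.7 and 1041. Leptin (Lep) stayed below a mean of 50, with 22.4, 60.1, 14.6, 30.4 and 25.5. The adipocyte list had a summed level of 2396, 11219, 1727, 6843 and 3154 per kb. Fatty acid synthase (Fasn), which many cell types express, departed from this order with 2909.7, 1979, 3264, 10392 and 5508.

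Fibroblast genes did not share 1 order. Dermatopontin (Dpt), a matrix protein of loose connective tissue, had 326, 2664, 95.2, 478 and 251 normalized reads, and decorin (Dcn), a small proteoglycan, had 2899.7, 9178, 1279, 1526 and 2241. Both were highest in WT2. Col1a1, the main fibrillar collagen, had 22180.4, 7986, 15633, 51256 and 14921, lowest in WT2 and highest in WT4. Col3a1 had 28404, 23918, 7592, 26629 and 23717, with WT3 alone far below. Of 21 genes of the list 5 were variable, 8 were highest in WT2 and 9 were lowest there. Over all genes measured the shares were 4.82%, 32.0% and 27.9%. Pdgfra had an SD of 0.21.

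Haemoglobin genes gave 0.0820% of all reads in WT2, 0.0252% in WT5 and at most 0.00815% in the other libraries. Hbb-bs, an adult beta globin, had 614, 7537, 254, 511 and 2071 normalized reads, and Hba-a1 had 239, 2545, 116, 251 and 589. The erythroid list summed to 1413, 15265, 688, 1182 and 4454 per kb. All 5 erythroid genes with a mean of at least 50 were highest in WT2 and 4 were variable, against 32.0% and 4.82% of all genes measured. Alas2, the haem synthesis enzyme of red cell precursors, was not variable, at 185, 328, 292, 84.7 and 236. With the GC and length trends removed, 3 of the 5 were highest in WT2. The paired alpha and beta globin genes are near-identical copies, and their single values are uncertain.

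Most neutrophil genes and several inflammatory genes were highest in WT3. Of 18 neutrophil genes with a mean of at least 50, 12 were variable and 12 were highest in WT3. Over all genes measured the shares were 4.82% and 14.3%. S100a8 had 57.3, 635, 835, 103 and 129.6 normalized reads and S100a9 69.8, 505, 830.2, 97.7 and 79.8, so that WT2 and WT3 stood together above the rest. The receptors Csf3r (315, 408, 877, 383 and 259) and Cxcr2 (49.0, 81.1, 224, 63.7 and 43.2) were highest in WT3 alone. Ltf, a granule protein made during neutrophil maturation, had another order, 19.9, 172, 13.6, 259.9 and 107, with WT4 and WT2 high. Retnlg and Ngp, named after their values were seen, were highest in WT2 at 292 and 259.6 and had 87.4 and 32.0 in WT3. The defining marker Ly6g had 0, 18.2, 6.80, 3.62 and 5.54. Keratinocyte genes were also highest in WT3, and S100a8 and S100a9 are known to be made by activated keratinocytes. The epidermal list summed to 437, 1013, 5591, 343 and 2075 per kb in WT1 to WT5. The part of either source in these values was not tested. The summed level of the neutrophil list was 2210.3, 4263, 7774, 4734 and 2035 per kb in WT1 to WT5.

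Cytokines and chemokines that act on neutrophils followed. Cxcl2, a ligand of Cxcr2, had 52.4, 6.37, 531, 12.3 and 6.65 normalized reads, and its SD of 2.61 was the largest of its list. Il1b had 432, 753, 1531, 351 and 483. The list of CXCR2 ligands, G-CSF and inflammatory cytokines had 14 genes with a mean of at least 50. Of these 3 were variable and 8 were highest in WT3, against 4.82% and 14.3% of all genes measured. The others were highest in WT4 (3), WT2 (2) and WT5 (1). The prostaglandin synthase Ptgs2 and the macrophage growth factor Csf1 had an SD of 0.41 and 0.42. The collagenase Mmp13 had 1504, 546, 5062, 864 and 1340.3, and was also highest in WT3.

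Interferon targets moved together in most members. Of 20 type I interferon targets, 19 were highest in WT3, where 14.3% of all genes measured were highest, Oasl1 (named after its values were seen) was highest in WT4, and 1 of the 20 was variable. Oas3, an oligoadenylate synthetase that senses double-stranded RNA (chromosome 5, 120753098 to 120777661), had 155, 114, 633, 501 and 255 normalized reads. Oasl2 had 719, 560.1, 2552, 1759 and 952, and Ifi44 had 1147, 756, 2829, 1267 and 1718. Over the list, WT3 was above WT1, WT2, WT4 and WT5 by medians of 2.36-fold, 2.67-fold, 1.73-fold and 2.01-fold. Of 20 interferon gamma targets 16 were highest in WT3 and 0 were variable. The share of variable genes over all genes measured was 4.82%, so lists of 20 can hold 1 or 0 without differing from other genes. Gbp4, a guanylate-binding protein of cell-autonomous defence, had 1734, 1294, 6483, 2517 and 2411, and Gbp2 had 2985, 2559, 5128, 3109.7 and 3895. With the GC and length trends removed, 20 type I and 17 interferon gamma targets were highest in WT3.

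The 250 bases before the start of Oas3, the most variable of the type I targets, hold a match to the interferon-stimulated response element, searched as GAAANNGAAA on both strands and shown in capitals.
Oas3 (chr5:120777660-120777909, minus strand): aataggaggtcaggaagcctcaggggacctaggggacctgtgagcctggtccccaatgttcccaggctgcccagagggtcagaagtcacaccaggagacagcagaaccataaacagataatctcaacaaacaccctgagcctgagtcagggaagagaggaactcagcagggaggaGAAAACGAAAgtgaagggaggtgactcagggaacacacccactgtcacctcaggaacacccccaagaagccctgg
The match lies from 75 to 66 bases before the start site of the RefSeq entry (GRCm38.p6). Of 16 genes of the list with a promoter entry 7 held a match, against 3.38% of 9507 genes with a mean of at least 50. No match in the other 9 says only that these letters are not in this window.

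Antigen presentation genes had median SDs of 0.42 for MHC class I and 0.50 for class II, against 0.42 for all genes. The type I interferon and interferon gamma targets had 0.61 and 0.47. B2m had 24429, 26771, 27565, 26844 and 27460.0 normalized reads, a span of 1.13-fold, while the heavy chain H2-D1 had 9600.0, 9791, 11766, 17185 and 9146. Of 12 MHC class I genes and 8 class II genes with a mean of at least 50, 0 were variable, against 4.82% of all genes measured. The class II invariant chain Cd74 had 6346, 8860.3, 10489.6, 20192 and 6972, highest in WT4, while H2-Aa, a class II alpha chain, was highest in WT2 and had an SD of 0.24.

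Immunoglobulin genes marked WT4. All 4 genes of the B and plasma cell list with a mean of at least 50 were variable and highest in WT4. Over all genes measured 4.82% were variable and 28.2% were highest in WT4. Ighm, the mu heavy chain, had 341, 515, 112, 1087 and 109.7 normalized reads in WT1 to WT5. Igkc, the kappa light chain, had 90.6, 266, 24.3, 581 and 31.0. Ighg1, a class-switched heavy chain, had 10.8, 29.1, 0.971, 361 and 11.1, and Jchain, which joins IgA and IgM multimers, had 44.9, 173, 10.7, 190.4 and 8.86. WT4 was highest and WT3 and WT5 were lowest or next to it, apart from Ighg1, where WT1 and WT5 stood together. The list summed to 392, 976, 139, 2039 and 154 per kb, and its defining markers Ms4a1 and Cd79a were not analysed here. The T cell genes had a smaller spread than the immunoglobulin genes: Cd8a had 95.6, 65.6, 143, 152 and 78.6, and Cd3e had 44.9, 44.6, 77.7, 114 and 36.6. Of 8 T cell genes with a mean of at least 50, 0 were variable, which a list of this size can hold without differing from other genes. Their median SD was 0.49, against 0.42 for all genes.

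Mast cell protease genes, known from granules, were high in WT2 and WT3. Cpa3, a carboxypeptidase of mast cell granules, had 29.1, 217, 104, 36.9 and 37.7 normalized reads, Mcpt4 had 45.7, 226, 139, 42.7 and 60.9, and Tpsb2 had 32.4, 229, 230.1, 99.2 and 43.2. Of 7 mast cell genes 4 were variable, 3 were highest in WT2 and 3 in WT3, against 4.82%, 32.0% and 14.3% of all genes measured. With the GC and length trends removed 1 was highest in WT2. The mast cell list summed to 274, 731, 744, 297 and 277 per kb in WT1 to WT5. Mast cells are known to reside in skin and muscle. The epidermal list was highest in WT3 and second highest in WT5, and the fast muscle list was highest in WT2 and lowest in WT3. The part of those tissues in the mast cell values was not tested.

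Macrophage genes differed by less than immunoglobulin genes, and most were highest in WT2. The macrophage list summed to 28007, 56969, 17929.7, 32696 and 28053 per kb. Of 22 macrophage genes 15 were highest in WT2 and 17 lowest in WT3, against 32.0% and 26.8% of all genes measured. The 1 variable gene was Folr2, a folate receptor of resident macrophages, at 63.2, 426, 20.4, 117 and 49.8. Lyz2 had 12658, 36168, 6265, 11879 and 17214 normalized reads. C1qa had 3149.9, 5951, 2134, 4379.7 and 2353. Adgre1, which encodes F4/80, had 996, 1151, 657, 819.6 and 772. Csf1r was highest in WT4 instead, with 1740.3, 1617, 1164, 3340.0 and 2112. The monocyte receptor Ccr2 had 1971, 5534, 649.6, 1946 and 2721. Lyve1, a receptor of lymphatic vessels and of some resident macrophages, had 136, 839.7, 53.4, 212 and 139.6.

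CC chemokines had a larger spread than the macrophage genes. Of 10 with a mean of at least 50, 6 were variable and 8 were highest in WT2, against 4.82% and 32.0% of all genes measured. Ccl6 had 1909.9, 10489.6, 819.5, 2142 and 1646 normalized reads, and Ccl9 had 598, 3596, 220.4, 778 and 534. Ccl11, which draws in eosinophils, had 303, 591, 30.1, 211 and 158. The exceptions were Ccl5, highest in WT4, and Ccl3, named after its values were seen, which had 221 in WT3 and at most 38.2 elsewhere.

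Carcinoma and basement membrane genes were mostly highest in WT4, and the counts fell when GC and length trends were removed. Of 23 epithelial genes with a mean of at least 50, 15 were highest in WT4, where 28.2% of all genes measured were highest, and 3 were variable: Cdh1, the small GTPase Rab25, named after its values were seen, and the sorting adaptor Ap1m2. Rab25 had 256, 106, 313, 208 and 56.5 normalized reads and Ap1m2 129.7, 35.5, 194, 139.7 and 42.1, both low in WT2 and WT5. With the GC and length trends removed 10 were highest in WT4. Of 11 basement membrane genes 10 were highest in WT4 and 9 lowest in WT2, where 27.9% of all genes measured were lowest, but 2 were highest in WT4 after that correction. Hspg2, which encodes perlecan, had 4773, 2080.1, 5173, 15354 and 7098, and Lama5, a laminin chain, had 3773, 1851, 6697, 13883 and 8036. The median GC content of the list was 56.5%, against 49.1% for genes with a mean of at least 50, and its median exon length was 8272 bases against 4392.

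Fn1, the matrix protein fibronectin, was the most variable of the 10 genes with the most reads, with 35957, 15057, 54796, 148271 and 67884 normalized reads and an SD of 1.21. H19, an imprinted noncoding RNA, had 8338, 12500.5, 2822, 26174 and 5184. Both were highest in WT4, while Fn1 was lowest in WT2 and H19 in WT3. The milk protein gene Csn3 had 68.2, 209, 0.971, 71.7 and 42.1, and Btn1a1, a protein of the milk fat globule, had 18.3, 39.2, 0, 26.8 and 35.4. Both were at or near 0 in WT3, but the mammary secretory list as a whole was not. Of its 2 genes with a mean of at least 50, Csn3 was highest in WT2 and the other in WT3. The list summed to 139, 183, 262, 245 and 184 per kb in WT1 to WT5.

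Cytosolic ribosomal protein, replication-dependent histone and nuclear oxidative phosphorylation genes were mostly highest in WT2, where 32.0% of all genes measured were highest. All 35 cytosolic ribosomal protein genes were highest in WT2, and 0 were variable (median SD 0.50). Rpsa had 23298, 35189, 14411, 16861 and 19060.3 normalized reads, and Rps2 had 5287, 11419, 3654, 5230.4 and 3818. All 20 replication-dependent histone genes were highest in WT2 and 2 were variable. Over all genes measured 4.82% were variable, so lists of this size can hold 0 or 2 without differing from other genes. Hist1h4d had 8766, 20825, 4680.2, 6469 and 4638. Histone genes took 1.78% of all reads in WT2 and between 0.507% and 0.942% in the other libraries. Of 25 nuclear genes of oxidative phosphorylation 23 were highest in WT2, and Cox5a had 334, 682, 244, 481 and 186. With the GC and length trends removed, 28 ribosomal protein genes, 19 histone genes and 23 oxidative phosphorylation genes were highest in WT2. All 7 small structured RNAs with a mean of at least 50 were highest there as deposited, and 1 was after the correction. Proliferation genes differed from histone genes at the high end: of 26, 10 were highest in WT5, 10 in WT4 and 5 in WT2. Over all genes measured the shares were 20.3%, 28.2% and 32.0%. At the low end 20 of 26 proliferation and 14 of 20 histone genes were lowest in WT3, against 26.8% of all genes measured. Mki67 had 9740.5, 4164, 7141, 6735 and 13699, and Top2a had 9342, 5946, 5212, 7079.6 and 10997, both highest in WT5.

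Variable long noncoding transcripts were mostly highest in WT3. Of 842 long noncoding and TEC genes with a mean of at least 50, 125 were variable, and 83 of these were highest in WT3, 19 in WT5, 17 in WT1, 3 in WT2 and 3 in WT4. Over all genes measured 4.82% were variable, and 12.4% of those with a mean from 50 to 100 were. The levels of the noncoding genes were not matched to those of other genes. Of all 628 variable genes 215 were highest in WT3, as were 14.3% of all genes measured. TEC genes took 0.795% of reads in WT3, 0.556% in WT1 and 0.550% in WT5, against 0.228% in WT2 and 0.241% in WT4. Sense-intronic genes took 0.110% in WT3 and 0.0336% in WT2. Neat1, the scaffold of paraspeckles, had 4598, 2274, 9661, 2811 and 8341 normalized reads, and Malat1 had 97331, 64444, 150707, 59313 and 111079.6. The share of unspliced RNA in each library was not measured here.

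Lists of proliferation, glycolysis, hypoxia and endothelial genes held no variable gene. Of 26 proliferation, 14 glycolysis, 20 hypoxia and 17 endothelial genes with a mean of at least 50, 0 were variable. Over all genes measured the share was 4.82%, so lists of this size can hold 0 without differing from other genes. The median SDs were 0.45, 0.49, 0.45 and 0.54, against 0.42 for all genes. Within these lists Ndrg1, a hypoxia-induced gene, had 2002, 1172, 5526, 5050.1 and 2694 normalized reads, and the glucose transporter Slc2a1 had 1164, 966, 2358, 2188 and 1212, both highest in WT3 and WT4. Proliferation genes were lowest in WT3 in 20 of 26, against 26.8% of all genes measured. Pecam1 had 1429, 976, 1200.1, 1177 and 1149. The pyruvate kinase gene Pkm had 11069, 11557, 11608, 15352 and 11024, with WT4 apart. Of 20 commonly used reference genes Polr2a, a subunit of RNA polymerase II, was the most variable, with 1649, 787, 2212, 5112 and 2944, and Actb had 51519, 56485, 47883, 98921 and 52883.

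The gene with the smallest SD was Golga5, a protein of the Golgi apparatus, with 429, 436, 445, 440.2 and 443 normalized reads and an SD of 0.02. The kinase Sgk1 had 1008, 1002, 1086, 1045 and 1051, and the ubiquitin ligase Chfr, which shares 427 exonic bases with Gm15787, had 456, 439.9, 466, 431 and 464. Msln, the surface protein mesothelin, had 526, 479.9, 503, 528 and 514. Btbd3, Cyyr1, Ppp2r5c, Trmt10b, Gm5561 and Ndufaf7 completed the 10 genes with the smallest spread, each with an SD of at most 0.06.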

How the data were processed

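Total RNA of frozen tumour sections was depleted of ribosomal RNA and sequenced, per the labels' protocols, which name primers with molecular identifiers. The authors deposited a signal table of normalized read counts for 18047 genes in 10 libraries, of which the 5 WT columns were used. Per the submitters' processing notes, base calls came from bcl2fastq 2.17 and the build was GRCm38. The aligner, counter, use of strand and use of the identifiers are not given in the sources used here. All deposited values (100%) came out as whole read numbers, to within 0.0001 read, once divided by what a single read is worth. 1 read was worth 0.724 to 1.11 normalized reads, and 3 reads, taken as the floor, 2.17 to 3.32.

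From these values the mean, the level per kb of exon length (GENCODE M21) and the SD of log2(value + 1) were computed with Python 3.11.15, numpy 2.4.6, pandas 2.3.3 and scipy 1.17.1. Figures were drawn with matplotlib 3.10.9. Gene IDs matched the annotation in 17961 cases and did not in 86. Scaling by trimmed means used edgeR 4.0.16 in R 4.3.3. No difference between groups was tested, since the 5 libraries form 1 group, and extreme libraries were only set against Dixon's critical value of 0.71. The procedure was tested on simulated data. The labels tie no library to a named animal, so the spread between libraries may be in part technical. PCR and counting errors were not separated, and Wilson intervals (95%) cover counting error only.

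The genes named are the 20 coding genes with the highest level per kb, the 10 genes with the most reads, the 30 with the largest and the 10 with the smallest SD, the defining markers, and the 4 members with the highest mean and the 1 with the largest SD of each of 47 lists (791 genes), 286 genes in all. Of the named genes 85 share exonic bases with another gene, 25 of them with a coding gene. The members and lists were chosen with earlier results of these data known. Alternatives covered the pseudocount, the minimum mean, the scaling, GC and length trends, the measure of spread, the pair of libraries numbered 170 and each library left out. A check of the gene knocked out in the other libraries and the values of some named genes are not reported here.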

Additional observations from a re-analysis of the deposited data

Results flagged for a closer look

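In each group of 5 values, the gap between the most extreme library and its nearest neighbour was divided by the whole range and set against a critical value of 0.71. Of 343 sets of values tested (282 genes, 47 list levels and 14 shares of reads), 12 passed it, or 3.50%, and chance flags about 1 in 20 groups. The extreme library was WT3 in 5 of them, WT4 in 4, WT2 in 2, WT1 in 1 and WT5 in 0.

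WT3 stood apart for Col3a1 (low, gap share 0.863), Btn1a1 (low, 0.801), Krt6b (high, 0.748), Myh4 (low, 0.723) and the level of the list of CXCR2 ligands, G-CSF and inflammatory cytokines (high, 0.745). WT4 stood apart, and was high, for Pkm (0.844), the actin-bundling gene Fscn1 (0.807), Actb (0.772) and Krt19 (0.772). WT2 was apart for Cdh1 (low, 0.724) and the haemoglobin share of reads (high, 0.726). WT1 was low for B2m (0.758), whose whole range was 1.13-fold.

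For 3 genes the result depended on the pseudocount, in a check chosen after seeing the data. With a pseudocount of 5 in place of 1, Myh4 (0.672) and Btn1a1 (0.706), both without a read in WT3, were below the critical value, and with 0.5 Krt6b (0.696) was. The other 7 genes stayed past it with both. Myh4 and Krt6b were named for their large spread, so their gap shares are not independent of that choice.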

How the results depend on the processing

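No paired analysis was possible because the 5 WT libraries were compared with no other group. The library that led the most variable genes was WT2 as deposited and WT3 in 4 alternatives: a minimum mean of 10, no minimum, scaling to the library total (267 for WT2) and median-of-ratios scaling over nuclear protein-coding genes (290 for WT3, 276 for WT2). The number of variable genes, 628, became 1379 with a minimum mean of 10, 212 with 200 and 1433 with no minimum, and 309 with WT1, WT4 and WT5 alone, a choice made after seeing the data. Leaving out 1 library at a time gave 348 (without WT2) to 873 (without WT1). It moved the genes highest in WT1 to between 30 and 78, in WT4 to between 53 and 110 and in WT5 to between 34 and 87. With a minimum of 10, WT1, WT2, WT3 and WT5 led 91, 509, 603 and 92 genes. With 200, WT1 to WT5 led 5, 123, 47, 32 and 5, and with no minimum 99, 514, 631, 88 and 101. WT5 led 13 with a pseudocount of 5. Scaling to the library total shifted the median gene by 0.06, -0.11, 0.19, -0.14 and -0.00 (log2) in WT1 to WT5, and WT3 then led 360 genes. With GC and length trends removed, WT1, WT4 and WT5 led 16, 20 and 11. Over nuclear protein-coding genes only, WT1, WT3 and WT5 led 12, 121 and 6. The cause of these moves was not tested, apart from the number of genes counted.

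With GC and length trends removed, 3 erythroid genes were highest in WT2, 2 basement membrane genes in WT4, and the median SD of ribosomal protein genes was 0.30. With WT2 and WT5 averaged it was 0.26. The scaled median absolute deviation gave 2.09 for fast muscle, 0.64 for neutrophil and 0.40 for type I interferon genes. Leaving out 1 library gave a median SD of 0.88 (without WT2) to 1.42 for adipocyte, 0.48 (without WT2) to 0.95 for basement membrane, 0.28 (without WT2) to 0.58 for ribosomal protein, 0.86 (without WT3) to 1.74 for basal keratin, 1.93 (without WT3) to 3.97 for fast muscle and 0.39 (without WT3) to 0.69 for type I interferon genes. With WT1, WT4 and WT5 alone, the median SD was 0.82 for basal keratins, 1.00 for fast muscle, 0.82 for adipocyte, 1.10 for erythroid, 0.41 for neutrophil, 0.25 for macrophage, 0.29 for type I interferon, 0.49 for basement membrane and 0.27 for ribosomal protein genes. The top 100 genes held 51.8% of the level per kb and 14.0% over nuclear protein-coding genes. Of 3766 alternative values for named genes 337 moved. A list has no lead value where its leading library is left out. Depth limits genes near 3 reads, and 5030 genes below a mean of 50 were not ranked.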
